A study of Drosophila melanogaster with 6 samples.

Results

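Vesicular transporters load transmitter into synaptic vesicles, and 8 genes of this transport and of transmitter metabolism were followed in adult fly brains with and without mushroom bodies. The genes were prt, Vmat, VGAT, VAChT and VGlut, which encode transporters, and ChAT, Ace and Gad1, which encode enzymes of acetylcholine and GABA. All probe sets that the platform annotation assigns to one of these symbols alone were taken, which gave 9 probe sets of 7 genes, among 13966 probe sets on the array. VAChT had no such probe set and is not analysed here. The flies were adult Drosophila melanogaster females of CantonS, a standard wild-type stock, and their brain RNA was hybridised to 6 single-colour Affymetrix arrays. Of these, 3 carried RNA of mushroom body-ablated brains (ablated 4, 5 and 6), from flies that as new hatchlings ate hydroxyurea at 25 mg/ml for 4 h. The other 3 carried RNA of untreated control brains (control 1, 2 and 3), and both groups grew on corn meal food at 25 °C. The drug blocks DNA synthesis and so kills the dividing neuroblasts of the mushroom bodies, but every ablated array and no control array comes from drug-fed flies, so its other effects cannot be told apart from the ablation. RNA is from whole brains, so fewer cells of a type and less RNA per cell cannot be told apart either, and no label says that the arrays come from separate cultures.

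Vesicular transporters load transmitter using the gradient made by the vacuolar proton pump, and so largely fix what a neuron can release. Acetylcholine is the main fast excitatory transmitter of the fly brain, and the Kenyon cells, the intrinsic neurons of the mushroom bodies, release it. GABA is the main inhibitory transmitter, supplied to the mushroom bodies by neurons from outside, as are the monoamines dopamine, octopamine and serotonin. The protein of prt (portabella) resembles the monoamine and acetylcholine transporters, has no established substrate and has been found in the mushroom bodies.

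Values below are signals after every array was scaled to the same 2% trimmed mean, because the deposited intensities did not share a level. The deposited trimmed means were 39.95, 37.3 and 41.8 on ablated 4, 5 and 6 and 49.3, 43.3 and 41.3 on control 1, 2 and 3. A difference is the ablated minus the control mean of log2(scaled signal + 2.71), and a probe set was tested where its mean signal over the 6 arrays was at least 9.19. That left 8 of the 9 probe sets, among 8388 tested. Signal levels of different probe sets depend on their probes, so genes are not ranked by level.

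The transporter gene prt (143798_at) was lower on all 3 ablated arrays than on any control array. The other tested probe sets of transporter and enzyme genes showed no difference of that size. Its signal was 4.12, 7.56 and 14.7 on ablated 4, 5 and 6, against 22.9, 22.5 and 23.2 on control 1, 2 and 3. The control arrays lay close together, whereas the ablated arrays spread widely, with ablated 6 nearest to the controls. The means were 8.80 ± 5.41 in ablated and 22.9 ± 0.333 in control brains (SD, n = 3 each). The ablated mean lay under the level for testing, and prt was tested because of its control arrays. The filter thus had a part in its direction, and the size of its change is uncertain. The narrow control spread depends in part on the scaling, since the deposited values were 3.9, 6.7 and 14.6 on ablated 4, 5 and 6 and 26.8, 23.1 and 22.7 on control 1, 2 and 3.

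The log2 difference of prt was -1.26 (SE 0.35), with a 95% interval of -2.05 to -0.47 and an unadjusted p of 0.00584 in limma's test. It did not pass when adjusted over all tested probe sets (adjusted p = 0.839), and 0 of 8388 probe sets did (0%). At an unadjusted p under 0.05, limma had 210 lower (2.5%) and 197 higher (2.35%) probe sets. By size, prt held place 10 from the lowest difference, and by p place 34. Its p, interval and places are descriptions only, since prt was tested because of its control arrays. Of the tested probe sets, 0.286% were at least 2-fold lower with no overlap between the groups and 0.417% at least 2-fold higher. Lower by that rule were also 0.586% of the 3071 with a control mean of 15 to 40, bounds set around prt after its values were seen, and 0.228% were higher. The probe set is dim, and with an offset of 16 in place of 2.71 the difference was -0.67.

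**Figure D1:**
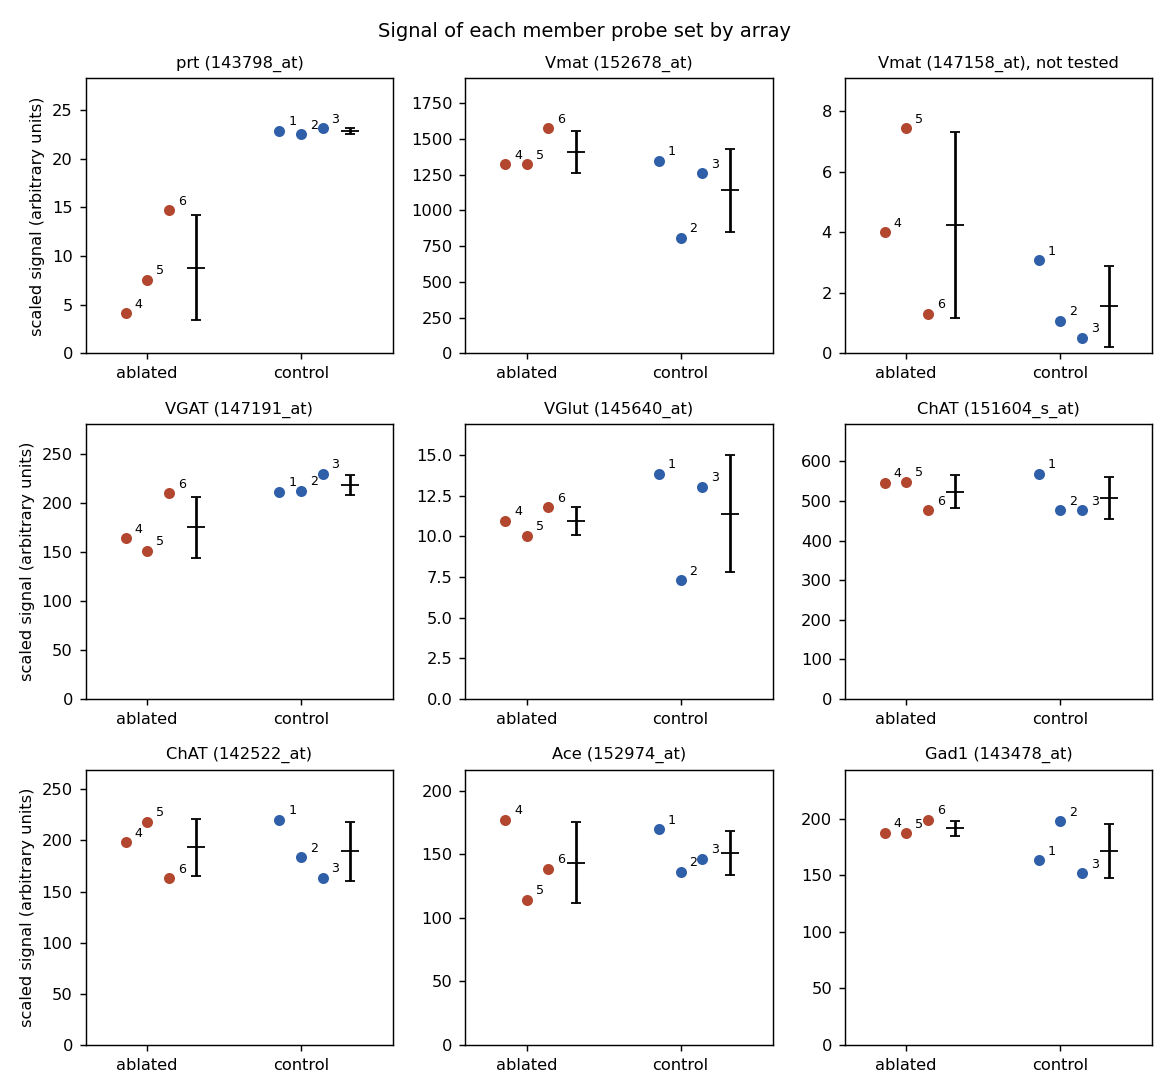
Scaled signal (vertical axis, arbitrary units, from 0) of the 9 probe sets on each array, numbered by replicate, with ablated arrays at left and control arrays at right; the bar beside each group is the mean with its SD (n = 3). Only prt shows a wide gap, with at most 14.7 on ablated and at least 22.5 on control arrays, and VGAT is separated by 210.3 on ablated 6 against 212 on control 1.

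The vesicular monoamine transporter Vmat loads dopamine, serotonin, octopamine and histamine, and its bright probe set (152678_at) stood on the other side of 0 from prt. It measured 1321, 1324 and 1576 on ablated 4, 5 and 6, against 1347, 809 and 1261 on control 1, 2 and 3. The groups overlapped, and control 2 alone was far below the rest. The difference was 0.33 (SE 0.19, 95% interval -0.094 to 0.76, adjusted p = 0.839). With 1 array left out it ran from 0.11 (without control 2) to 0.47 (without control 1). The second Vmat probe set (147158_at) was below the level for testing, with at most 7.45 on any array, and was not tested in the main fit. It read 4.01, 7.45 and 1.31 on ablated 4, 5 and 6, against 3.08, 1.07 and 0.51 on control 1, 2 and 3. The groups overlapped, and in a fit without filter the difference was 0.65 (SE 0.37).

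Set against each other within each array, which removes any scaling, prt was lower relative to Vmat on all 3 ablated arrays. The log2 ratio of prt to Vmat in the deposited intensities, relative to its control mean, was -2.72, -1.85 and -1.14 on ablated 4, 5 and 6, against -0.27, 0.44 and -0.16 on control 1, 2 and 3. The mean shift was -1.90, with an SD of 0.79 in ablated and 0.38 in control brains, and no ablated array reached the controls. Its size rests on deposited prt signals of 3.9 and 6.7 on ablated 4 and 5, which are as dim as probe sets left untested. An exact permutation test (two-sided) gave p = 0.1, the smallest that 3 against 3 arrays allow, and 0.15 adjusted over the 3 pairs compared. A ratio shows unequal change and not which of the genes changed.

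VGAT (147191_at), the vesicular GABA transporter, was the other gene with no overlap between the groups. Its signal was 164, 151 and 210.3 on ablated 4, 5 and 6, against 212, 213 and 230.0 on control 1, 2 and 3. Ablated 4 and 5 lay clearly below the controls, while ablated 6 fell just short of them. The means were 175 ± 30.9 in ablated and 218 ± 10.2 in control brains (SD, n = 3 each), a difference of -0.32 (SE 0.15, 95% interval -0.67 to 0.021, adjusted p = 0.839). The gap at ablated 6 closed when arrays were scaled to a common median or quantile normalized, and prt alone was then without overlap.

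Gad1 (143478_at) encodes glutamic acid decarboxylase, the enzyme that makes GABA, and is used by the same neurons as VGAT. It read 188, 188 and 199 on ablated 4, 5 and 6, against 164, 198 and 152 on control 1, 2 and 3. The groups overlapped through control 2, and the difference was 0.17 (SE 0.14, 95% interval -0.15 to 0.49, adjusted p = 0.857). The log2 ratio of VGAT to Gad1 within arrays was -0.55, -0.67 and -0.28 on ablated 4, 5 and 6, against 0.015, -0.25 and 0.24 on control 1, 2 and 3. It thus lay lower on every ablated array, though by a narrow margin between ablated 6 and control 2 (mean shift -0.50, exact permutation p = 0.1, adjusted p = 0.15 over the 3 pairs).

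The acetylcholine enzyme genes ChAT and Ace overlapped between the groups, with 95% intervals that reached both sides of 0. ChAT encodes choline acetyltransferase, the enzyme that makes acetylcholine and the usual marker of cholinergic neurons, and VAChT lies within the same locus, with a shared annotated start in RefSeq (Release 6 plus ISO1 MT). The brighter ChAT probe set (151604_s_at) read 546, 548 and 476 on ablated 4, 5 and 6, against 568, 476 and 477 on control 1, 2 and 3. The values fell into the same range in both groups, with a difference of 0.047 (SE 0.13, 95% interval -0.24 to 0.33, adjusted p = 0.952). The dimmer one (142522_at) read 198, 218 and 163 on ablated 4, 5 and 6, against 220.3, 184 and 164 on control 1, 2 and 3, a difference of 0.030 (SE 0.16, 95% interval -0.34 to 0.40, adjusted p = 0.980). Both ChAT probe sets had a negative difference in the unscaled deposited intensities (-0.12 and -0.13), in which the median of all tested probe sets was -0.17, against -0.018 after scaling. Relative to those medians neither ChAT probe set was lower.

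Ace (152974_at), the gene of the acetylcholinesterase that ends the signal, read 177, 114 and 139 on ablated 4, 5 and 6, against 170, 136 and 146 on control 1, 2 and 3. Its lowest and highest values were both on ablated arrays. The difference was -0.088 (SE 0.18, 95% interval -0.50 to 0.32, adjusted p = 0.941), and 0.062 without ablated 5. The ratio of Ace to ChAT overlapped between the groups (mean shift -0.14, exact permutation p = 0.8, adjusted p = 0.8 over the 3 pairs).

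VGlut (145640_at), the vesicular glutamate transporter, was measured close to the level for testing. Its signal was 11.0, 10.05 and 11.8 on ablated 4, 5 and 6, against 13.8, 7.31 and 13.1 on control 1, 2 and 3. All ablated values lay within the range of the control arrays. The difference was -0.016 (SE 0.31), and its 95% interval of -0.72 to 0.69 leaves room for changes in either direction.

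**Figure D2:**
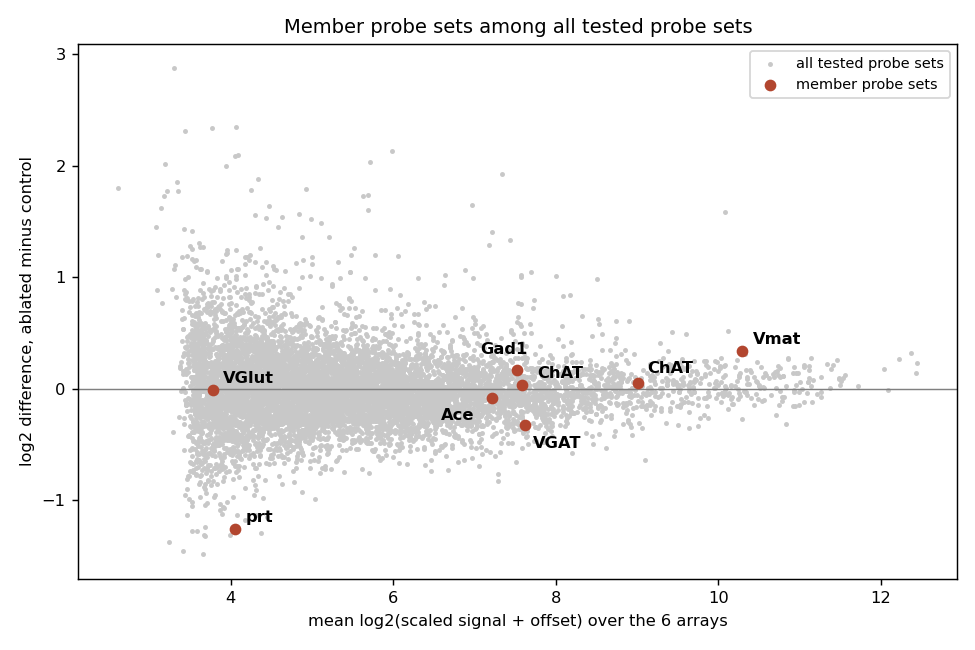
Log2 difference (ablated minus control, vertical axis) against mean log2(scaled signal + offset) over the 6 arrays (horizontal axis) for all 8388 tested probe sets (grey) and the 8 tested probe sets of the named genes (red). The prt point, at -1.26, lies at the lower edge among dim probe sets, whose differences scatter widely, and the others lie within 0.34 of 0.

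Of the 8 tested probe sets, 0 passed limma's adjusted test (0% of all tested), and 1, prt, had an unadjusted p under 0.05. Without overlap between the groups were 2, both lower in ablated brains, where 6.38% of all tested probe sets were lower and 4.64% higher in this way (11% in all). These counts are small, and prt was known to be lower from earlier results of these data.

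**Figure D3:**
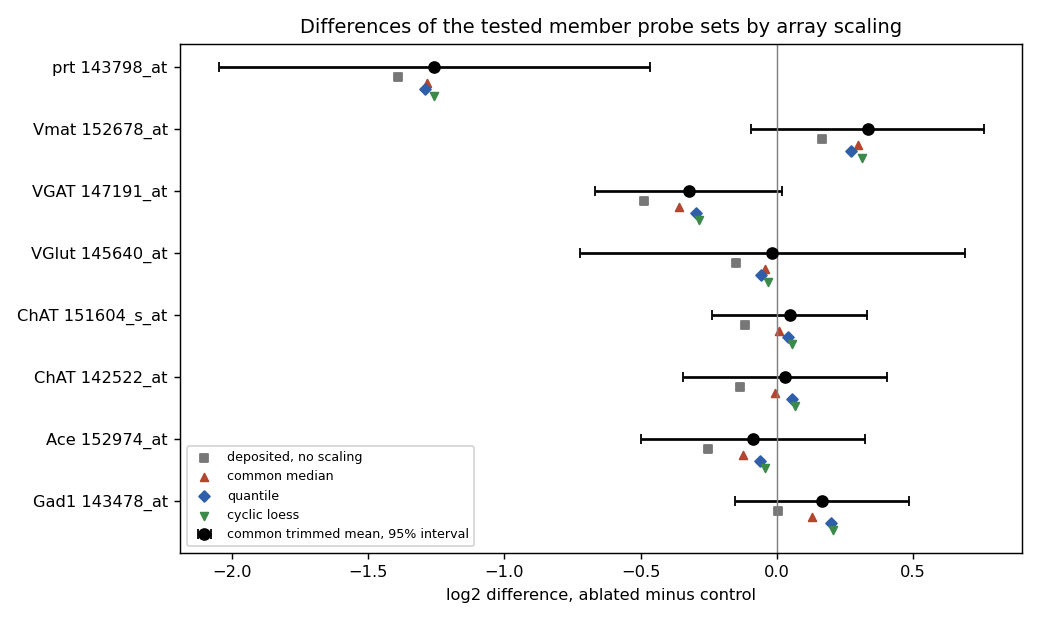
Log2 difference (ablated minus control, horizontal axis) of each tested probe set after scaling to a common trimmed mean (black, with the 95% interval) and under 4 other treatments of the arrays (small symbols below). Only the interval of prt lies wholly below 0, and the unscaled values (grey squares) lie lower for all 8 probe sets, since the deposited ablated arrays were dimmer.

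The arrays also differed in ways that bear on these values. The 3' to 5' signal ratio of the Gapdh control probe sets, a sign of RNA integrity and labelling, was 9.37, 10.5 and 7.12 on ablated 4, 5 and 6 and 13.04, 7.18 and 12.7 on control 1, 2 and 3. Ablated 6, with the lowest ratio, had the highest prt and VGAT signals of its group, while control 2, with a ratio almost as low, lay close to the other controls in both genes. The same ratio for actin was 12.5, 17.2 and 14.5 on ablated 4, 5 and 6 and 19.4, 12.99 and 17.3 on control 1, 2 and 3, and ablated 4, lowest by that ratio, had the lowest prt. The part of RNA quality in these values was not tested. Of 9 tested Kenyon cell marker genes 8 had a difference below 0, with a median of -0.14. Over all tested probe sets 52.6% lay below 0. The summed signal of the markers was 2981, 2673 and 2801 on ablated 4, 5 and 6 and 3066, 2824 and 3411 on control 1, 2 and 3. Most of that sum was rut (151241_f_at), at 2299, 2099 and 2072 on ablated and 2169, 2028 and 2448 on control arrays. The difference was -0.036 for rut, -0.067 for chinmo and -0.087 for trio, and Imp lay above 0 at 0.11. It was -0.14 for sNPF, -0.17 for dac and -0.32 for dnc. The Pax6 genes ey, at -0.83, and toy, at -0.41, had the smallest p of that list. Both were under 0.05 unadjusted in limma's test, as were 2.5% of all tested probe sets on the lower side. Without overlap, 3 of the 9 were lower (ey, toy and dnc) and 0 higher, against 6.38% and 4.64% of all tested probe sets. General neuron markers had a median of 0.0062 over 5 genes (elav -0.30, brp 0.25), with summed signals of 905 to 1010 on ablated and 905 to 1052 on control arrays. Glial markers had a median of -0.047 over 7 genes (moody 0.48, nrv2 -0.38), with sums of 2057 to 2591 on ablated and 2338 to 2437 on control arrays.

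Markers of tissue around the brain varied more. Muscle markers were above 0 for 5 of 5 genes (Mlc2 1.33, Mlc1 1.36), with sums of 242, 1238 and 219.8 on ablated 4, 5 and 6 and 80.6, 618 and 75.9 on control 1, 2 and 3. Odorant-binding proteins were above 0 for 6 of 6 (Obp56d 2.03, Obp19d 2.13), with sums of 145, 1540.0 and 169 on ablated 4, 5 and 6 and 55.1 to 65.1 on control arrays. Os-C of that list was close to 0 on ablated 4 and on all control arrays, at 0.817 to 1.11. Os-C, Obp83b, Obp28a and lush had control means of 0.935, 4.34, 2.31 and 0.600, under the level for testing. They were tested because of their ablated arrays, mainly ablated 5, so the filter largely set their direction. The same held for the muscle gene Act88F, with a control mean of 5.16 and 42.5 on ablated 4. Photoreceptor markers had a median of 0.34 over 6 genes (Arr2 0.99, inaD 0.39), with sums of 430.0 to 1433 on ablated and 124 to 1526 on control arrays, and fat body markers 0.32 over 5 (Yp3 0.23, Yp2 0.32), with sums of 15367 to 21859 on ablated and 11144 to 20954 on control arrays. On ablated 5, highest in muscle and odorant-binding signal, VGAT and Ace were lowest, but prt was lowest on ablated 4. The part of these tissues in the differences was not tested.

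Around the transporters and enzymes, the receptors and partners of each transmitter were counted from lists, with the brightest tested probe set per gene, and 0 genes of any list passed the adjusted test. For comparison, 52.6% of all tested probe sets had a difference below 0. In acetylcholine signalling 7 of 11 genes lay below 0, with a median of -0.16, which was -0.050 without control 1 and -0.032 without control 3. The nicotinic receptor subunit nAChRalpha2 (152882_at) read 137, 141 and 159 on ablated 4, 5 and 6, against 192, 193 and 172 on control 1, 2 and 3, with no overlap and a difference of -0.34 (adjusted p = 0.839). The subunit nAChRbeta2 was also lower without overlap, at -0.17, so 2 of the 11 genes were lower in this way and 0 higher. Over all tested probe sets those shares were 6.38% and 4.64%. A further subunit, nAChRbeta1, stood at -0.41 with overlapping groups. The dim nAChRalpha4, with a control mean of 16.1, stood at 0.33, also with overlap, so receptor genes lay on both sides of 0. Their largest differences were smaller in size than that of prt.

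In GABA signalling 5 of 7 genes lay below 0, led by the receptor subunit Lcch3 at -0.33 and the adhesion gene Nlg2 at -0.38. The median of the list was -0.040, and it ran from -0.18 without control 2 or ablated 6 to -0.013 without control 3, with -0.11 without ablated 4 and -0.076 without ablated 5. Glutamate genes had a median of -0.070 over 9 (-0.12 without control 3), with the receptor subunit Nmdar1 at -0.31 and the uptake transporter Eaat2 at -0.22. Monoamine synthesis and uptake genes lay above 0 for 6 of 7, as Vmat did. Their median was 0.12, which was 0.075 without control 2 and -0.041 in unscaled intensities. The gene below 0 was Ddc, at -0.032. Above 0 were ple, tyrosine hydroxylase, at 0.13, the dopamine transporter DAT at 0.12 and the tyrosine decarboxylase Tdc1 at 0.58. The list also holds e, of beta-alanyl amine synthase, which modifies amines and does not make them, at 0.22. The control mean of Tdc1, 7.35, lay under the level for testing. Tdc1 was tested because of its ablated arrays, with a mean of 12.1, so the filter largely set its direction. In limma's test 0 of the 7 had an unadjusted p under 0.05.

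The vacuolar proton pump, on which all vesicular loading depends, had 9 of 14 subunit genes below 0, with a median of -0.10. Without ablated 5 that median was -0.00097, and it was -0.17 without ablated 6 and -0.067 without ablated 4 or control 3. The pump genes with the smallest p were VhaAC45 at -0.26 and Vha100-1, the neuronal a subunit, at -0.30, and both overlapped between the groups. Genes of the vesicle cycle had 8 of 10 below 0 and a median of -0.24, which was -0.14 without control 1 and -0.15 without ablated 5. Among them were Csp, a vesicle chaperone, at -0.40 without overlap, and Rim, an active zone scaffold, at -0.30. Without overlap, 2 of the 10 were lower (Csp and shi, the latter at -0.18) and 0 higher, against 6.38% and 4.64% of all tested probe sets. The vesicle SNARE gene nSyb stood at 0.0062, so the vesicle genes did not share 1 level of difference. Some lists share genes: nSyb and brp are also neuron markers and Gs2, of the glutamate list, is also a glial marker. In the unscaled deposited intensities the medians were -0.28 for acetylcholine, -0.21 for GABA, -0.23 for glutamate, -0.041 for monoamine, -0.27 for pump and -0.40 for vesicle cycle genes, where that of all tested probe sets was -0.17.

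**Figure D4:**
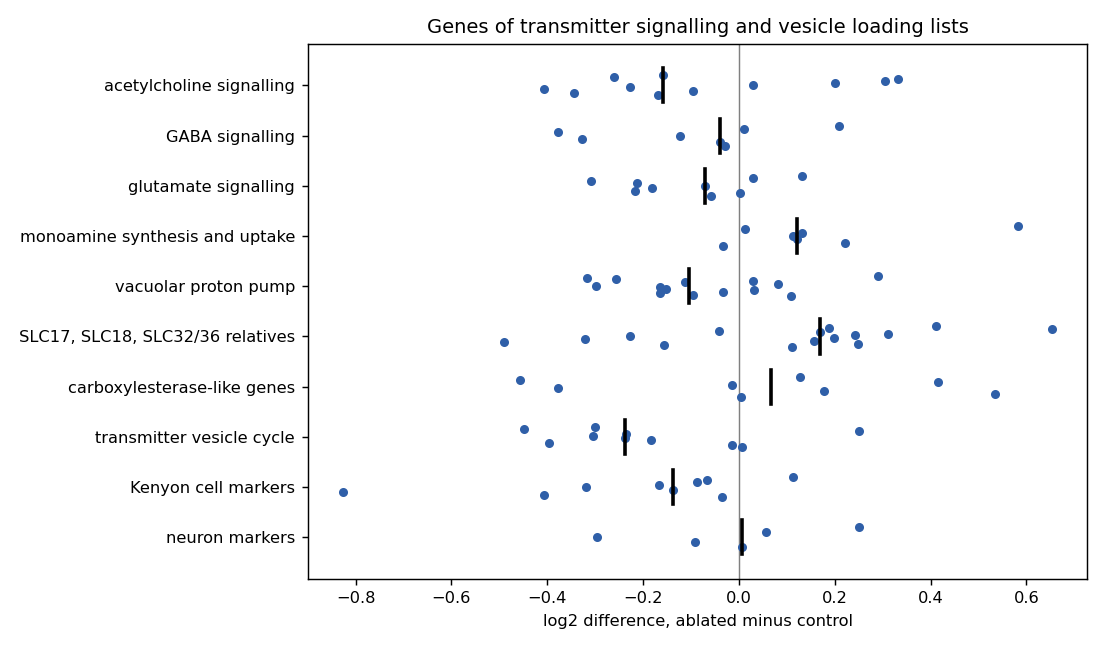
Log2 difference (ablated minus control, horizontal axis) of each tested gene (points) in 8 lists around transmitter use and in the Kenyon cell and neuron marker lists, with the list median as a black bar. Medians run from -0.24 for the vesicle cycle to 0.17 for genes listed as transporter relatives, and ey, at -0.83, is the lowest point.

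Over the 6 arrays, the profile of prt was most like those of Tl, a Toll receptor gene (r = 0.986), CG32982 (0.982), CG5890 (0.981), Klp68D, a kinesin motor gene (0.979), and CG7694 (0.978). Of 7464 single-gene probe sets compared, 84 had r above 0.9, so these 5 are a description of the arrays and not a group set apart. Of the 5, CG32982 alone differed by as much as prt, with means of 7.89 in ablated and 22.4 in control brains (difference -1.31). Its ablated mean, like that of prt, lay under the level for testing. The others differed by -0.29 to -0.47. All 5 were picked by their r with prt on these arrays, so lower ablated values follow in part from that choice. The brighter ChAT probe set was most like Iris (r = 0.985), Idgf1 (0.981), stops (0.980), CG5773 (0.980) and alphaCOP (0.978), again among 84 above 0.9. Among the genes followed here, prt and VGAT had r = 0.896 and the 2 ChAT probe sets 0.923, all from the same 6 arrays.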

How the data were processed

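Per the labels, Trizol was used for extraction and biotin for labelling. The authors deposited an intensity for each probe set on each array. Per the submitters' processing notes it came from MAS5, with settings that the sources used here do not give. Of 14010 probe sets, 44 Affymetrix controls were left out, and 12443 of the rest had a single gene, 327 several and 1196 none. Symbols were updated by gene identifier for 12394. Arrays were scaled to the mean of their 2% trimmed means. The offset, 2.71, and the level for testing, 9.19, are the 20th and 40th percentiles of scaled values. The test was limma 3.58.1 under R 4.3.3 (lmFit, eBayes with an intensity trend, two-sided), adjusted by Benjamini-Hochberg over 8388 probe sets at 0.05, with no covariates. The test was also run on simulated data. At most 1.52% of values were identical between any pair of arrays, so none was treated as a duplicate. The number of arrays limits the precision, and p-values measure the spread between them, which may be technical. Named are all 7 genes with probe sets, at most 2 genes per list by smallest p, and the 5 profiles most like prt and ChAT. Named after their values were seen were nAChRalpha4, nAChRbeta2, ple, DAT, nSyb, Os-C, Obp83b, Obp28a, lush, Act88F, rut, chinmo, trio and Imp. The same holds for sNPF, dac, dnc, Ddc, shi, MFS3 and MFS10. Members and lists were chosen with earlier results of these data known. Alternatives varied scaling, offset, filter, variance model and the arrays used.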

Additional observations from a re-analysis of the deposited data

How the results depend on the processing

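The adjusted test called 0 of the transporter and enzyme probe sets under all 16 alternatives, and prt and VGAT stayed below 0 wherever they were tested. For prt the difference ran from -1.43 (offset 1) to -0.67 (offset 16), and from -1.62 to -0.94 with 1 array left out. Those of VGAT ran from -0.49 to -0.29 and from -0.46 to -0.23. The number of these probe sets with no overlap was 1 in place of 2 with arrays scaled to a common median, after quantile normalization and with the filter at the 60th percentile (which leaves out prt and VGlut), and 2 to 4 with 1 array left out, where overlap is rarer by construction. The 4 came without control 2, when VGlut (lower) and Gad1 (higher) joined, and Vmat (higher) joined without control 1. Of all tested probe sets, 9.67% to 13.9% were lower and 8.05% to 10.65% higher in this way with 1 array left out. Those shares were 7.99% and 3.20% at a common median and 6.42% and 4.355% after quantile normalization. With the filter at the 60th percentile they were 6.79% and 4.33%. Over all probe sets 0 to 2 were called with 1 array left out. The 2 came without control 1 and were scaf and a probe set with no single gene, both higher in ablated brains. The direction of ChAT turned in deposited intensities (-0.12 for 151604_s_at and -0.13 for 142522_at) and, for 142522_at, at a common median (-0.0067). With 1 array left out, 142522_at ran from -0.068 to 0.14, VGlut from -0.25 to 0.12 and Ace from -0.25 to 0.062. The median of monoamine genes was -0.041 and that of carboxylesterase-like genes -0.081 in deposited intensities. At an unadjusted p under 0.05 deposited intensities gave 661 lower and 53 higher probe sets, and no filter gave 344 and 373. No paired analysis was possible because the groups share no replicate numbers. Dim probe sets (prt, VGlut) have the least margin over background.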

Other observations

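Genes listed as relatives of the vesicular transporters (SLC17, SLC18 and SLC32/36 families, membership not checked) were above 0 for 10 of 15 tested. Their median log2 difference was 0.17 (0.099 without control 3 and 0.016 in unscaled intensities). In limma's test 0 of them passed when adjusted or had an unadjusted p under 0.05. The genes with the smallest p lay on opposite sides of 0. CG13384 measured 102 ± 20.3 in ablated and 126 ± 9.32 in control brains (SD, n = 3 each). MFS14 measured 47.7 ± 10.2 in ablated and 37.5 ± 2.72 in control brains, every ablated array lying above every control array. Without overlap, 1 of the 15 was lower (MFS10) and 2 were higher (MFS14 and MFS3), against 6.38% and 4.64% of all tested probe sets. Genes of carboxylesterase-like proteins related to acetylcholinesterase had a median of 0.066 over 8, with 5 above 0, and the median turned to -0.019 without control 3 and was 0.000255 without ablated 5 and 0.038 without control 1. Nlg2 and Nlg3, neuroligin adhesion genes, stood at -0.38 and -0.46 (Nlg2 is the same probe set as in the GABA list), and 0 of the 8 had an unadjusted p under 0.05.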
